A study of Mus musculus with 2 samples.

Results

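The S100 proteins are a family of small calcium-binding proteins. Members were taken by gene symbol, 10 of the 24346 symbols listed in each library: S100a1, S100a4, S100a6, S100a8, S100a9, S100a10, S100a11, S100a13, S100a16 and S100b. RNA-seq was carried out on entire omenta, the abdominal fat sheet that carries the lymphocyte clusters called milky spots, taken 5 days after diphtheria toxin (DT). Both genotypes received DT, and each gave 1 library, wild type (WT) or Postn-DTR. Postn-DTR mice are heterozygous for a DT receptor cassette placed in the first coding exon of Postn, on a C57BL/6 background, so any cell that uses the Postn promoter becomes sensitive to the toxin. How many mice went into a library, and their age, were not stated. With 1 library per genotype the spread between animals is unknown and the genotypes could not be tested against each other. The differences below describe these 2 libraries and have no replicate check.

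S100 proteins act mostly as dimers whose paired EF hands, the helix-loop-helix calcium sites, open on calcium binding and grip a partner protein. S100a8 and S100a9 form calprotectin, an abundant cytosolic complex of neutrophils and monocytes that binds zinc and manganese and, once released, signals through Toll-like receptor 4 and RAGE. S100a4 and S100a6 are common in fibroblasts and macrophages, S100a10 and S100a11 bind annexins in most cells, and S100b is best known from glia and is also made by adipocytes.

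The promoters of S100a8, S100a9 and S100a4 are shown first, since these 3 members had the greatest increases. Each window holds 250 bases before the start and 20 bases from it onward, taken from RefSeq (GRCm38.p6, the patch release of mm10). Capitals mark TATAAA, the core of the TATA box, read on the strand of the gene.

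S100a8 (chr3:90668821-90669090, plus strand): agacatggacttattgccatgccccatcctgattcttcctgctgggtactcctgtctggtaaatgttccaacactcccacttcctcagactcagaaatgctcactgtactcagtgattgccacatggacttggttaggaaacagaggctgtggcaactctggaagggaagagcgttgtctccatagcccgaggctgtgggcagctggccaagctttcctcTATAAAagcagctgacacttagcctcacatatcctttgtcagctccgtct
S100a9 (chr3:90695702-90695971, minus strand): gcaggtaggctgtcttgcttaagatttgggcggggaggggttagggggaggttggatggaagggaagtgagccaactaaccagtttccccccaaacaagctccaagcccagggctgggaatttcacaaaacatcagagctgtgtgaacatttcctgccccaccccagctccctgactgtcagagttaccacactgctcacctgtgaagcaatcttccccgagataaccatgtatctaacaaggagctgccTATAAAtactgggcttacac
S100a4 (chr3:90603520-90603789, plus strand): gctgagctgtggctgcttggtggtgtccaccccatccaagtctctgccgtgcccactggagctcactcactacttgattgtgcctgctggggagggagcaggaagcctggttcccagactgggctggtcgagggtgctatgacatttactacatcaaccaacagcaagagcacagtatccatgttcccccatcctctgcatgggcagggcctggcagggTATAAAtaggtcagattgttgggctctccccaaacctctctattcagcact

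The TATAAA of S100a8 began 30 bases before the RefSeq start and that of S100a4 began 31 bases before it, whereas in S100a9 it began at the start itself. Of the 9 members with a window in the table, these 3 held TATAAA, on either strand, against 12.9% of all 32851 windows of the same length. S100a10 had no entry. The other motifs were also searched on both strands. GAGGAA, a core of PU.1 sites, was found in S100a8, S100a11 and S100a16 (25.1% of all windows), and 1 of the matches in S100a8 ended directly before the TATA box without overlapping it. TTNNGCAA, a C/EBP core, was found in S100a9 alone among the members (10.1%). TGANTCA, the AP-1 core, was found in S100a11 and S100a16 (7.23%). The 9 members had 10 windows because S100a16 had an additional window, and its GAGGAA and TGANTCA matches lay in different windows. GGNNTTTCC, an NF-kB core (5.33%), and TTCNNNGAA, a STAT core (7.58%), were found in 0 members. A match is a description of letters and not of a bound site.

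Values are FPKM, fragment counts scaled to transcript length and to the mapped depth of the library, as deposited. The estimated depth was similar, 22.9 M (WT) and 23.9 M (Postn-DTR) fragments, and the summed FPKM was 542190 against 671882. Postn, the targeted gene, measured 58.3 against 16.2 FPKM. Pancreatic acinar genes were nearly confined to the WT library, with a summed FPKM of 13072 against 62.1. With these genes taken out and both libraries brought to the same total, called equal totals here, the median over all compared genes shifted by -0.30, which bears on every S100 value below. The same scaling with the acinar genes kept shifted it by -0.27.

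The change of a gene was taken as log2(FPKM + 1) in Postn-DTR minus WT, and a gene was compared where its FPKM averaged 1 or more over both libraries. A change of 2-fold on this scale was called. Of the 10 members 9 were compared, and S100b was too low. At this threshold 0 of the 9 were called higher and 0 were called lower, where 3.88% of the 13127 compared genes were higher and 3.12% were lower. At 1.5-fold, 3 of the 9 members were higher (S100a8, S100a4 and S100a9) and 0 were lower, beside 9.86% and 8.84% of all compared genes. S100a9 dropped below 1.5-fold at equal totals, which left 2. The median change of the 9 was 0.20, beside 0.02 over all compared genes, and 8 of 9 changes were above 0, beside 51.9% of compared genes. At equal totals the members' median became -0.14 and that of all genes -0.28, and 4 of 9 members were above 0. In whole tissue a different number of cells and a different amount of RNA per cell cannot be told apart.

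**Figure D1:**
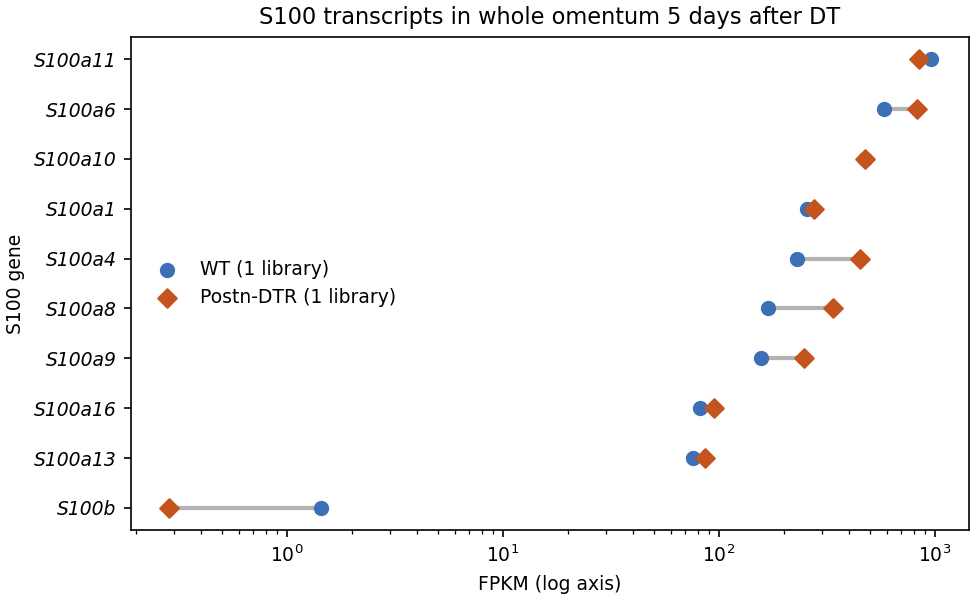
FPKM (log axis) of each S100 member in the WT library (blue circles) and the Postn-DTR library (orange diamonds), 1 library each, ordered by WT level. S100a8 moves from 169.7 to 338.6 and S100a4 from 231.4 to 448.9, while the points of S100a10 lie on each other at 473.5 and 476.6.

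S100a8 (ENSMUSG00000056054, chromosome 3, 90668978 to 90670035, plus strand, GRCm38) measured 169.7 FPKM in the WT library and 338.6 FPKM in the Postn-DTR library. The ratio of 1.996 lay just under the 2-fold line, with a change of 0.99, and 3.92% of compared genes had a larger change. About 1112 and 2375 fragments stood behind these values, which gives the ratio a 95% interval of 1.86 to 2.15 from counting error alone. S100a9 (ENSMUSG00000056071, chromosome 3, 90692632 to 90695721, minus strand) measured 156.6 and 249.3 FPKM, a 1.59-fold higher value with a change of 0.67 and a counting interval of 1.48 to 1.71. Both were thus higher in the Postn-DTR library, S100a8 by more than S100a9. The S100a8 to S100a9 ratio, which no scaling between libraries can alter, was 1.08 in WT and 1.36 in Postn-DTR. It was 1.25 times higher in Postn-DTR, with a counting interval of 1.13 to 1.39. The spread of this ratio between animals is unknown.

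By levels in both libraries (distance of log2(FPKM + 1) over 2 libraries), the genes closest to S100a8 were Xbp1 (166.5 and 330.0), Cox7a2l (185.2 and 304.0) and Plin2 (166.6 and 390.1). Those closest to S100a9 were H3f3b (166.7 and 261.8), Cstb (144.0 and 241.9) and Erdr1 (144.1 and 259.3). None of the 6 is a neutrophil granule gene, and with 2 libraries such likeness only describes these values.

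Markers of the cells that make calprotectin were read beside it. Of 15 neutrophil markers listed, 14 were present in the files and compared, and they moved in opposite directions, 7 at least 2-fold higher and 5 at least 2-fold lower. The 5 lower genes all encode granule proteins made by neutrophil precursors, although Mmp8, also a granule protein gene, was higher (1.32 and 6.82). Among them Ngp fell from 48.0 to 13.2, Camp from 33.1 to 8.98, Ltf from 12.4 to 1.98, and Mpo from 3.84 to 0.73. The 7 higher genes included Csf3r, the G-CSF receptor, from 6.87 to 15.9, Retnlg from 12.8 to 72.6, Cxcr2, the receptor for CXCL1 and CXCL2, from 0.514 to 4.03, and the decoy receptor gene Il1r2 from 0.864 to 20.1. The grouping of the lower genes as granule genes was made after the values were seen. Any gene within 2-fold lies between the higher and the lower genes, because both were called by these same changes. S100a8 (change 0.99) and S100a9 (0.67) lay nearer to the higher ones. The closest changes were 1.10 for Csf3r among the higher genes and -1.27 for Elane among the lower. The ratio of S100a8 to Csf3r was 24.7 in WT and 21.3 in Postn-DTR, that to Ngp was 3.54 and 25.6, and that to Retnlg was 13.3 and 4.66. S100a8 per unit of neutrophil transcript therefore pointed in different directions with the marker chosen.

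Of 15 monocyte and macrophage markers 5 were at least 2-fold higher and 1 lower, with a median change of 0.80 (0.47 at equal totals) and 13 above 0. Itgam, which encodes CD11b of neutrophils and macrophages, rose from 46.8 to 251.9, Ly6c2 of inflammatory monocytes from 50.9 to 150.3 and Chil3 from 12.1 to 170.0, whereas Ccr2 fell from 39.6 to 16.4. The summed FPKM of the list was 3279 in WT and 5344 in Postn-DTR, and that of the neutrophil list was 155.7 and 189.7. The part of either cell type in the S100a8 and S100a9 values was not tested. Among cell types not known for calprotectin, the median change was 0.35 over 8 mesothelial markers (0.02 at equal totals), -0.19 over 7 endothelial (-0.51), -1.04 over 6 T cell (-1.30) and -0.99 over 6 B cell markers (-1.32). The endothelial median of -0.19 is the value of Lyve1, which is also in the monocyte and macrophage list.

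**Figure D2:**
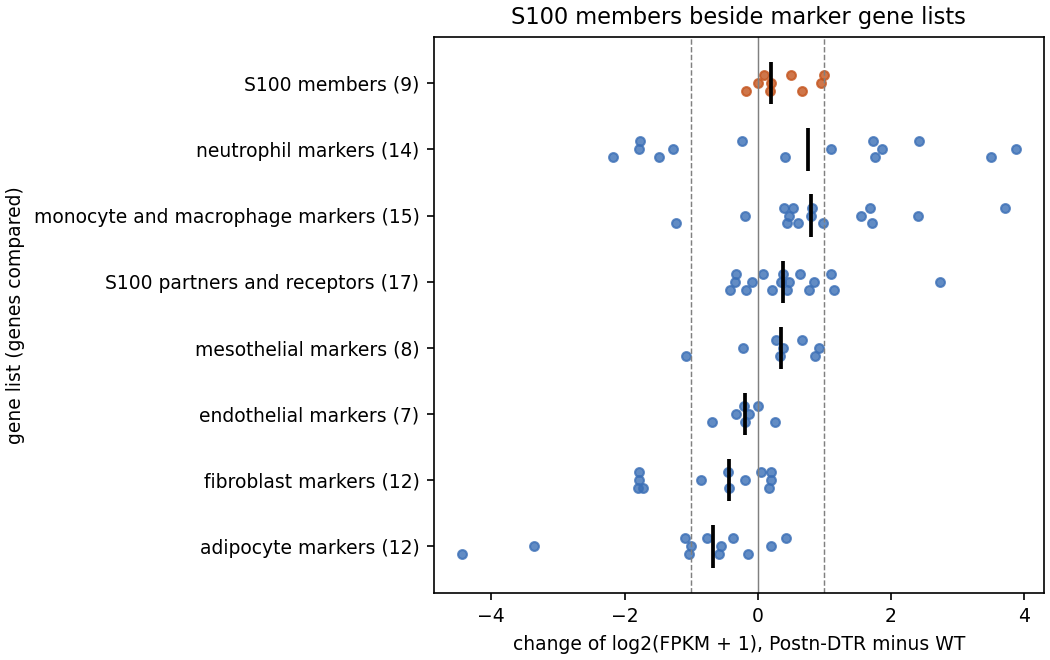
Difference between the libraries in log2(FPKM + 1), as Postn-DTR minus WT, for the 9 compared S100 members (orange) and for the compared genes of 7 lists (blue), with black bars at the medians and dashed lines at 2-fold. The S100 members stay within 2-fold, with a median of 0.20, while the neutrophil markers spread to both sides of the dashed lines.

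The receptors through which calprotectin acts were also measured. Tlr4 measured 5.75 FPKM in WT against 8.37 in Postn-DTR, its co-receptor Ly96 (MD-2) at 19.1 and 26.3, and Ager, which encodes RAGE, at 4.77 and 8.82. None of these reached 2-fold. Cd14, which hands ligands to Toll-like receptor 4 and is carried by monocytes and macrophages, rose from 33.6 to 230.1. This was the largest change of the 17 genes listed as partners and receptors. Cybb, the catalytic subunit of the phagocyte NADPH oxidase to which calprotectin delivers arachidonic acid, passed 2-fold, from 39.8 to 88.96. The list is broader than partners and receptors and also holds Alox5, the enzyme of leukotriene synthesis, which passed 2-fold as well, from 14.2 to 31.6. In all, 3 of the 17 were at least 2-fold higher and 0 lower, with a median change of 0.39, which became 0.04 at equal totals, where 1 of the 17, Cd14, was still 2-fold higher.

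S100a4 (ENSMUSG00000001020, chromosome 3, 90603771 to 90606045, plus strand), also called Fsp1 and known to bind non-muscle myosin, measured 231.4 FPKM in WT against 448.9 in Postn-DTR. It was 1.94-fold higher, with a change of 0.95 and a counting interval of the ratio of 1.83 to 2.06, and 4.27% of compared genes had a larger change. S100a4 serves as a fibroblast marker and is also expressed by macrophages. Fibroblast markers were mixed, with 4 of 12 above 0 and 8 below, 0 at least 2-fold higher and 4 lower, and a median change of -0.44. Dpt was at 236.9 and 67.3 and Clec3b at 353.9 and 101.8, but Pdgfra was at 25.96 and 29.2 and Dcn at 1875 and 2152. Under equal totals 0 of 12 were above 0, with a median of -0.78. Monocyte and macrophage markers had a median change of 0.80, beside 0.95 for S100a4. Itgam, Ly6c2 and Chil3 rose by more than S100a4, Lyz2 (change 0.54) and Csf1r (0.47) rose by less, and Ccr2 and Lyve1 (-0.19) fell. The ratio of S100a4 to Itgam was 4.94 in WT and 1.78 in Postn-DTR, whereas relative to Lyz2 and Csf1r S100a4 was higher in Postn-DTR. The direction thus depended on the marker chosen. The part of either cell type in the S100a4 value was not tested.

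S100a6, or calcyclin (ENSMUSG00000001025, chromosome 3, 90612882 to 90624181, plus strand), measured 585.0 FPKM in WT against 830.5 in Postn-DTR. This 1.42-fold higher value, with a counting interval of 1.38 to 1.46, had a change of 0.50. It lies 6.84 kb from S100a4 on the same strand, and the S100a4 to S100a6 ratio was 0.396 in WT and 0.540 in Postn-DTR. Both S100a6 and S100a4 kept a positive change under all 8 alternatives of pseudocount, filter and scaling, from 0.16 to 0.51 for S100a6 and from 0.61 to 0.96 for S100a4. The same held for S100a8, from 0.65 to 0.997, and S100a9, from 0.32 to 0.67.

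**Figure D3:**
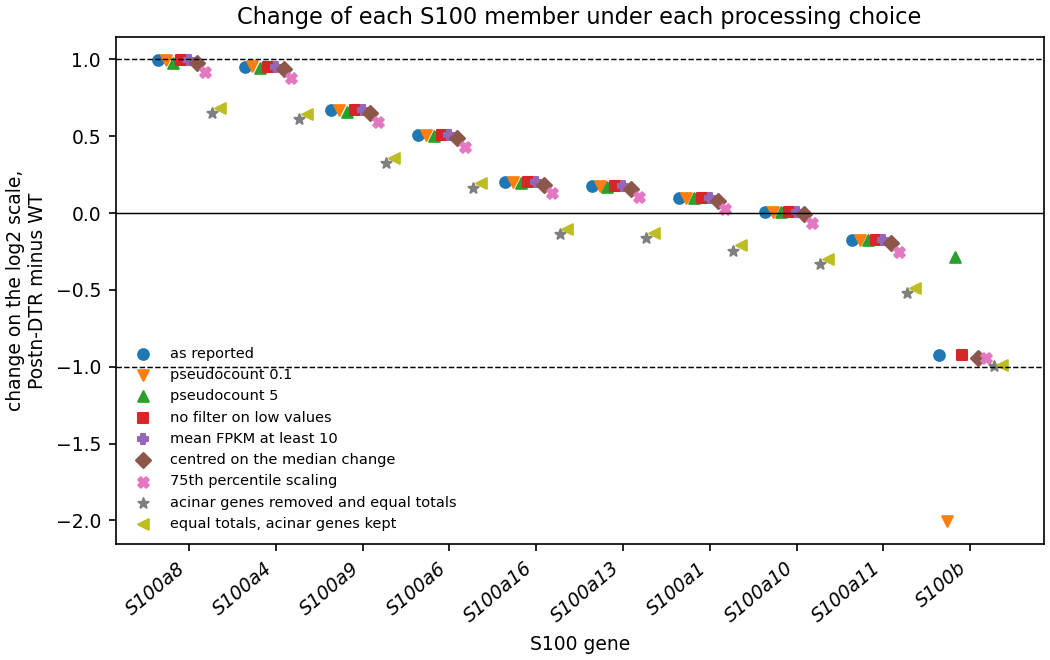
Change of each S100 member, Postn-DTR minus WT, as reported and under 8 other choices of pseudocount, filter and scaling, with dashed lines at 2-fold. S100a8, S100a4, S100a9 and S100a6 stay above 0 under every choice and S100a11 below it, while the grey stars and olive triangles (equal totals without and with the acinar genes) put S100a16, S100a13, S100a1 and S100a10 below 0.

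S100a11 and S100a10, both partners of annexins, showed the lowest changes of the 9. S100a11 (ENSMUSG00000027907, chromosome 3, 93520488 to 93526287, plus strand), a partner of annexin A1, was the most abundant member in both libraries, with 957.6 FPKM in WT against 847.4 in Postn-DTR. Its ratio of 0.885 had a counting interval of 0.855 to 0.916 and its change was -0.18, the lowest of the 9, which stayed below 0 under all 8 alternatives (-0.52 to -0.18). S100a11 has an annotated pseudogene, S100a11-ps, with which it may share reads, so its values are uncertain. S100a10 (ENSMUSG00000041959, chromosome 3, 93555080 to 93564643, plus strand), also named p11, is the family member that does not bind calcium and holds annexin A2 in a tetramer at the membrane. It measured 473.5 FPKM in WT against 476.6 in Postn-DTR, a ratio of 1.01 with a counting interval of 0.969 to 1.05. The sign of this change of 0.01 turned under each scaling tried, to -0.0089 with changes centred on their median, to -0.065 with a common 75th percentile and to -0.33 at equal totals. Anxa2, the partner of S100a10, was at 489.1 and 430.4, and the S100a10 to Anxa2 ratio was 0.968 in WT and 1.11 in Postn-DTR. Anxa1 was at 222.1 and 290.4, opposite in direction to S100a11. Within each library, and hence free of scaling, S100a6 was 0.611 of S100a11 in WT and 0.980 in Postn-DTR, and S100a4 was 0.242 and 0.530 of it.

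**Figure D4:**
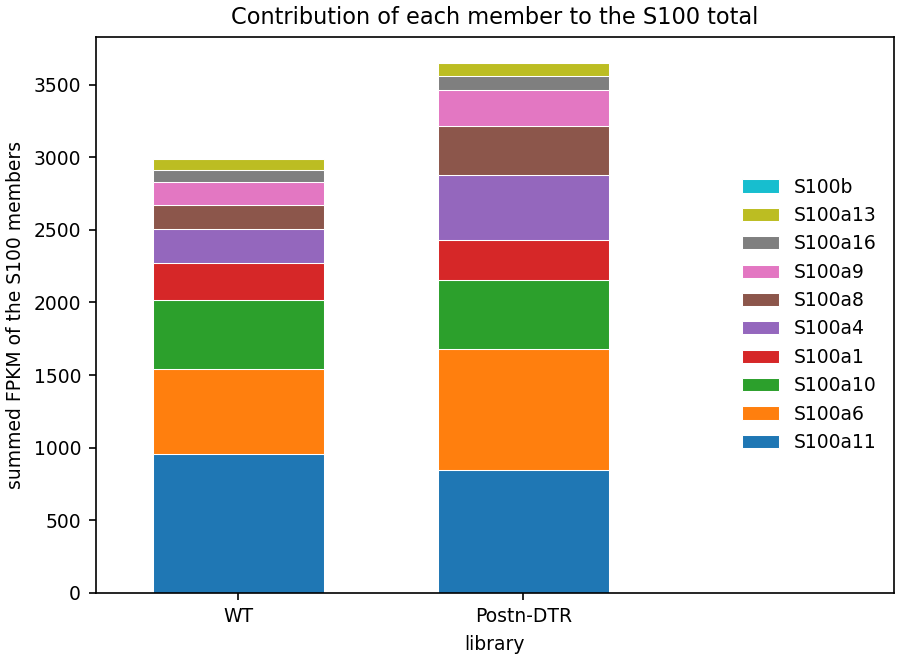
Summed FPKM of the 10 S100 members in the WT and Postn-DTR libraries, 1 bar per library starting at 0, with each member as a coloured block. The bar is 2991 high in WT and 3648 in Postn-DTR, and the S100a11 block narrows from 32.0% to 23.2% of it.

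S100a1, S100a13 and S100a16 differed little between the libraries. S100a1, known for its action on calcium release in muscle, measured 257.4 FPKM in WT against 275.7 in Postn-DTR, a ratio of 1.07. S100a13, which takes part in the release of FGF1 and interleukin 1 alpha, was at 76.2 and 86.3, a ratio of 1.13. S100a16, associated with adipocyte formation, was at 82.2 and 94.7, a ratio of 1.15. All 3 had changes between 0.10 and 0.20, smaller than the shift between scalings, and at equal totals they became -0.24 for S100a1, -0.16 for S100a13 and -0.14 for S100a16. S100a1 (90511034 to 90514392, minus strand) and S100a13 (90514435 to 90524581, plus strand) lie close together, head to head. Their annotated positions do not overlap. The libraries were stranded, but whether strand was used in quantification is not given in the sources used here. The S100a1 to S100a13 ratio was 3.38 in WT and 3.20 in Postn-DTR. Adipocyte markers beside S100a16 and S100a1 had a median change of -0.67, with 4 of 12 at least 2-fold lower and 0 higher, and -1.02 with 6 lower at equal totals.

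S100b (ENSMUSG00000033208, chromosome 10, 76253853 to 76261159, plus strand) was the only member off chromosome 3 and the only one under the expression minimum. It measured 1.44 FPKM in WT against 0.284 in Postn-DTR, or about 42.4 and 8.77 fragments. It was 5.07-fold lower on the plain FPKM, with a counting interval of 2.35 to 11.4. On the log2(FPKM + 1) scale the change was -0.93, which moved to -2.003 with a pseudocount of 0.1 and to -0.29 with a pseudocount of 5, so its size is set by the scale. Glial markers did not move as one. Sox10, the Schwann cell transcription factor, was at 0.154 in WT and listed at 0 in Postn-DTR, and Cdh19 was at 0.150 and listed at 0. Of 11 Schwann cell and glial markers 5 were compared, of which 3 were above 0, among them Erbb3 (1.01 and 2.13), and 2 below, Ngfr (5.38 and 1.63, at least 2-fold lower) and Scn7a (11.6 and 7.58). Their median change was 0.15, and -0.16 at equal totals. The summed FPKM of the list was 37.8 in WT and 32.1 in Postn-DTR, of which Mbp, which other cells also express, made up 16.7 and 18.7. The part of glia or adipocytes in the S100b value was not tested.

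Among levels, the order in WT ran S100a11, S100a6, S100a10, S100a1, S100a4, S100a8, S100a9, S100a16, S100a13 and S100b. In Postn-DTR S100a4 and S100a8 stood above S100a1, and the rest kept their order. FPKM is per length, but the S100 transcripts are short (486 to 1484 bases), and levels of short transcripts depend on the length correction used. S100a6 and S100a11 in Postn-DTR differed little, and with 1 library no order could be tested. Summed over the members, FPKM came to 2991 (WT, 0.552% of the library sum) and 3648 (Postn-DTR, 0.543%), so their share of the whole was nearly the same while their sum was 1.22 times higher. S100a4, S100a6, S100a8 and S100a9 together added 724.7. S100a4 grew from 7.74% to 12.3% of the sum and S100a8 from 5.67% to 9.28%.

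**Figure D5:**
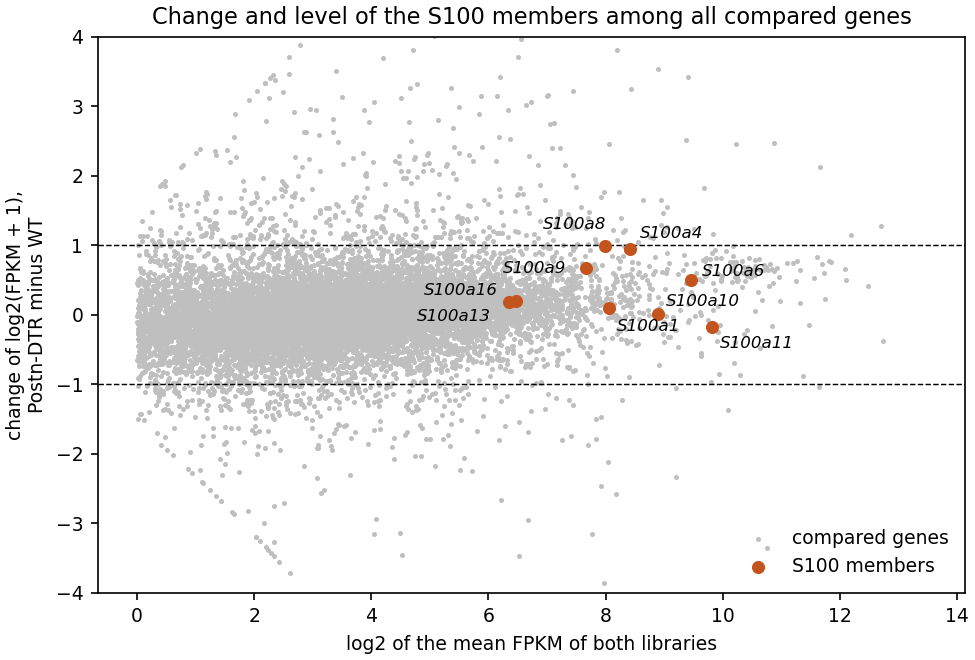
Difference between the libraries in log2(FPKM + 1), as Postn-DTR minus WT, against log2 of the mean FPKM for the compared genes (grey) and the 9 compared S100 members (orange), with dashed lines at 2-fold and 50 genes beyond the vertical axis. S100a8 and S100a4 lie just under the upper line and the other members between -0.18 and 0.67.

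By position, 9 members lie on chromosome 3 between 90511034 and 93564643, in a group of 7 from S100a1 to S100a9 and a pair, S100a11 and S100a10, at the far end. Between them lies the epidermal differentiation complex, whose genes build the skin barrier. Of the 56 genes in this interval that are not of the S100 family, 49 were at 0 in both libraries and the highest mean FPKM was 0.717, so the S100 members were the genes of this interval that passed the expression minimum. The 3 members higher by at least 1.5-fold all lie in the first group, as do S100a1, S100a13 and S100a16, whose changes were between 0.10 and 0.20. S100a8 and S100a9 are 22.6 kb apart on opposite strands.

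The other 6 listed S100 genes, S100a3, S100a5, S100a7a, S100a14, S100g and S100z, all stayed under the expression minimum. S100g and S100z were at 0 in both libraries, as was S100a2, a family gene outside the list. S100a7a, the mouse counterpart of the psoriasin genes of skin, measured 1.27 FPKM in WT against 0.231 in Postn-DTR, about 31.5 and 5.99 fragments. S100a5 was listed at 0 in WT and at 0.541 in Postn-DTR, about 3.08 fragments, S100a3 at 0.168 and 0, and S100a14 at 0.147 and 0.237, which at this depth are a few fragments each.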

How the data were processed

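RNA was measured in 2 libraries of whole omentum, 1 WT and 1 Postn-DTR, grouped by the genotype label. Stranded TruSeq mRNA libraries were made from miRNeasy-extracted RNA, per the labels. The authors deposited FPKM per gene symbol, and their processing notes name TopHat2 2.1.1, Bowtie2 2.2.8, SAMtools 0.1.18, Cuffdiff 2.2.1 and mm10. The annotation, and any scaling between libraries, are not given in the sources used here.

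Changes were computed as log2(FPKM + 1), Postn-DTR minus WT, for genes whose FPKM averaged 1 or more, with 2-fold as the call. Python 3.11.15, numpy 2.4.6, pandas 2.3.3 and scipy 1.17.1 were used. Positions and transcript lengths came from GENCODE M21 (GRCm38), in which 95.7% of symbols matched. Depth was estimated from FPKM under 0.5 of genes with 1 annotated transcript. Within a tolerance of 0.1 fragments, 81.3% (WT) and 80.8% (Postn-DTR) of these values came out whole, against 21.3% in each after lengths were shuffled. Transcript length was reduced by 200 and 192 bases. Fragment numbers are therefore estimates, and the exact (Clopper-Pearson) intervals of ratios made from them cover counting error only. The interval of a change of ratio used a normal approximation on the log scale. The calls and the depth estimate were tested on simulated data.

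Members, marker lists and motifs were chosen with earlier results of these data known, and no list was tested. Protein sequences were not used here. Named genes were the members, genes of 12 fixed lists and the 3 genes nearest to S100a8 and S100a9. The 10 alternatives were 2 pseudocounts, 2 filters, 4 scalings and 2 thresholds, of which 1, equal totals with the acinar genes kept, was chosen after seeing the data. Some genes of the lists are not reported here by name.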

Additional observations from a re-analysis of the deposited data

How the results depend on the processing

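The number of S100 members at least 2-fold higher or lower was 0 under every pseudocount, filter and scaling and at 3-fold, and 3 were higher at a 1.5-fold threshold. Apart from that lower threshold, no choice could raise the count of higher members. The largest plain ratio was 1.996 (S100a8), and every scaling lowered the changes. The counting intervals of S100a8 (1.86 to 2.15) and S100a4 (1.83 to 2.06) include 2-fold. S100b, at -2.003 with a pseudocount of 0.1, was not compared there. The median change of the members, 0.20 as reported, was 0.19 with a pseudocount of 5, 0.19 with no filter on low values, 0.18 after centring, 0.13 with 75th percentile scaling and -0.14 with the acinar genes removed and totals made equal. That last scaling moved the median of all genes by -0.30, and relative to it the members' median was 0.14, beside 0.18 as reported. It also took the share of higher genes among all called genes from 55.4% to 28.8%. Signs turned for S100a10, to -0.0089 after centring, -0.065 with 75th percentile scaling and -0.33 at equal totals, and at equal totals for S100a1 (-0.24), S100a13 (-0.16) and S100a16 (-0.14). With totals made equal and the acinar genes kept, an alternative chosen after seeing the data, the median of all genes moved by -0.27, the members' median was -0.10, and S100a10 (-0.30), S100a1 (-0.21), S100a13 (-0.13) and S100a16 (-0.10) turned as well. Either way 2 members, and not 3, were at least 1.5-fold higher. Called genes numbered 509 higher and 410 lower, 642 and 643 when 0.1 was the pseudocount, 287 and 168 when it was 5, 303 and 173 over genes averaging 10 FPKM or more, 1294 and 1160 for the 1.5-fold call, and 199 and 153 for the 3-fold call. At equal totals they were 297 and 734, and 309 and 704 with the acinar genes kept. No replicate could be left out, and no paired analysis was possible because each genotype has 1 library.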
